A study of Mus musculus with 9 samples.

Results

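The Ly6 genes encode small cysteine-rich proteins that are held on the outer face of the cell membrane by a glycosylphosphatidylinositol (GPI) lipid anchor. The 6 described here are Ly6a, Ly6c1, Ly6c2, Ly6e, Ly6f and Ly6i, chosen by name from the 27179 genes of the deposited count table, and all 6 were found in it by gene identifier. They were measured in HPC7 cells, a mouse line of blood progenitors that depends on stem cell factor. The cells carried wild-type Snai1, a mutant Snai1 or an empty vector, with 3 RNA-seq libraries in each group.

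Ly6a encodes stem cell antigen-1 (Sca-1), the surface protein used with Kit to sort mouse blood stem cells, and it is also inducible by interferon in many mouse cells. Ly6c1 and Ly6c2 encode the 2 forms of the Ly-6C antigen, which is abundant on inflammatory monocytes of the mouse and present on other bone marrow cells. Ly6e encodes an antigen first described on immature thymocytes, which is induced by interferon and serves in the placenta as a receptor for a syncytin. Ly6f and Ly6i are less studied relatives of Ly6a.

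Snai1 is a repressor with zinc fingers, and its N-terminal SNAG motif recruits Lsd1, a demethylase of histones encoded by Kdm1a. In the mutant the phenylalanine at residue 5 was exchanged for alanine, which impairs that binding, so the 3 comparisons ask what Snai1 changes and what it changes without a full contact to Lsd1. All groups were made with the MSCV-IRES-GFP retrovirus, grown in RPMI with 100 ng/ml stem cell factor, 10% fetal calf serum and 0.05 mM 2-mercaptoethanol, and sorted for GFP 1 week after transduction. The cDNAs were driven by the vector, so their amount is not that of a cell's own gene. Snai1 itself averaged 492 ± 68.5 counts-per-million (CPM, on the TMM-scaled library size) in wild-type libraries, 460 ± 40.2 CPM in mutant libraries and 0.828 ± 0.205 CPM in empty-vector libraries (SD, n = 3 each). Kdm1a averaged 201 ± 7.55 CPM in wild-type, 199 ± 2.00 CPM in mutant and 201 ± 1.21 CPM in empty-vector libraries.

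Library totals lay between 18332451 and 20860314 counts, and all 10 progenitor markers examined, among them Kit, Cd34, Gata2 and Tal1, were expressed above the filter. A total of 3 counts in a library, used as the floor for a gene with 0 counts, corresponded to 0.144 to 0.161 CPM. Replicate 1 of wild-type Snai1 and replicate 1 of empty vector stood apart from the other libraries of their groups. The chi-square per degree of freedom over genes was 46.7 and 55.3 between wild-type replicate 1 and replicates 2 and 3, against 5.30 between those replicates. It was 72.3 and 70.4 for the same pairs of empty vector, against 4.93. In empty-vector replicate 1 a gene without a symbol held 3.62% of all counts. The chi-square values of that library may rest in large part on this single gene, and its part was not computed. The log2 fold changes or p values of the tested Ly6 members are therefore also given without those 2 libraries, a setting chosen after the data were seen. Sums of members were fitted with all 9 libraries only.

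All 6 genes lie on chromosome 15 (GRCm38, RefSeq). Ly6e spans 74955025 to 74959904 on the plus strand. Ly6i (74979534 to 74983434), Ly6a (74994877 to 74998031), Ly6c1 (75044018 to 75048920) and Ly6c2 (75108161 to 75112066) follow on the minus strand, and Ly6f (75268372 to 75272237) lies beyond them on the plus strand. The spans of Ly6a and Ly6i overlap the long noncoding gene Gm28068, and the strand setting of the counting was not given, so reads of that gene could be included in theirs.

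The coding sequences show how near the copies are to each other. The first 60 coding bases of each gene are printed from the GENCODE transcripts of GRCm38, because they show where a short read could belong to more than 1 member. Capitals mark the bases that differ from Ly6c1 at the same position.

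Ly6a: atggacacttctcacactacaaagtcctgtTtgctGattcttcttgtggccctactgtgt
Ly6c1: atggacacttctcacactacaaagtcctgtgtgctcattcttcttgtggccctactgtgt
Ly6c2: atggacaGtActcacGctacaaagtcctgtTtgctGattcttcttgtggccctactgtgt
Ly6e: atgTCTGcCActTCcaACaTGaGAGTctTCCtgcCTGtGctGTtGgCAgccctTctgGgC
Ly6f: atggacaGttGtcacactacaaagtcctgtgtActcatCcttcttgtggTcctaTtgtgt
Ly6i: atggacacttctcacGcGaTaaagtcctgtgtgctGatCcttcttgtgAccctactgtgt

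Within this stretch Ly6a differs from Ly6c1 at 2 positions, Ly6c2 at 5, Ly6f and Ly6i at 6 each, and Ly6e at 31. Over the whole coding sequence Ly6c1 and Ly6c2 were identical at 384 of 393 positions (97.7%). Ly6a was 86.3% identical to Ly6i, 84.6% to Ly6f, 81.8% to Ly6c1 and 81.6% to Ly6c2. Ly6e was the distant member, with an identity of 49.3% to 53.5% to the others. In all these values gap columns were counted as differing.

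How far reads could be confused was measured on the distinct windows of each gene's protein-coding transcripts. The measure is the share of them that also occur in any GENCODE transcript of another gene, on either strand. With windows of 50 bases this share was 32.8% for Ly6c1, 31.2% for Ly6c2, 19.0% for Ly6a and 4.76% for Ly6i. With 100 bases it was 10.1% for Ly6c1, 14.9% for Ly6c2, 1.45% for Ly6a and 0% for Ly6i. No window of Ly6e or Ly6f was shared at either length. The read length and the treatment of reads that map to several places are not given in any source used here, so the counts of Ly6a, Ly6c1, Ly6c2 and Ly6i are uncertain as to which copy a read came from, while those of Ly6e are not affected by this sharing.

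**Figure D1:**
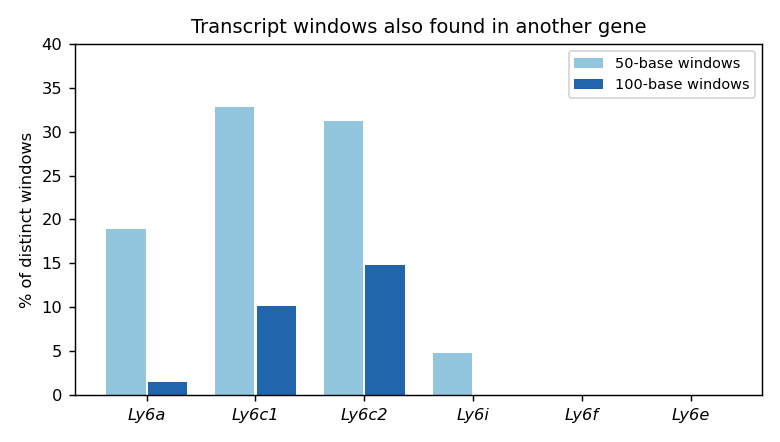
Percent of the distinct 50-base (light) and 100-base (dark) windows of each gene's protein-coding transcripts that also occur in another gene. The Ly6c1 and Ly6c2 bars reach 32.8% and 31.2% at 50 bases, and Ly6f and Ly6e have 0% at both lengths.

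In cells with wild-type Snai1 the Ly6 genes did not move as a block. Ly6a rose 12.3-fold over empty vector and remained the dominant Ly6 transcript. Ly6c1 rose 66.9-fold and Ly6c2, with no counts in the other groups, reached 4.29 CPM, while Ly6e fell to 0.131 of its level with empty vector. Ly6i was counted more often too, at a low level and in a ratio to Ly6a that overlapped between the groups. With mutant Snai1 none of these genes passed the test against empty vector, and Ly6f had 0 counts in all 9 libraries.

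Ly6a, the gene of Sca-1, had 520, 527 and 493 CPM in the wild-type libraries, against 45.9, 36.9 and 45.4 CPM in mutant libraries and 37.8, 43.7 and 43.9 CPM in empty-vector libraries. Every wild-type library was above every other library, and the mutant and empty-vector values overlapped. The log2 fold change was 3.62 ± 0.0959 (SE) for wild type against empty vector (edgeR quasi-likelihood test, adjusted p = 3.66e-09) and 3.59 ± 0.0957 for wild type against mutant (adjusted p = 4.27e-09). For mutant against empty vector it was 0.03 ± 0.0907 (adjusted p = 0.999), and the ratio of summed counts was 1.02 with a 95% counting interval of 0.963 to 1.08. Without the 2 libraries that stand apart, the log2 fold change of Ly6a was 3.53 for wild type against empty vector, 3.57 for wild type against mutant and -0.04 for mutant against empty vector.

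**Figure D2:**
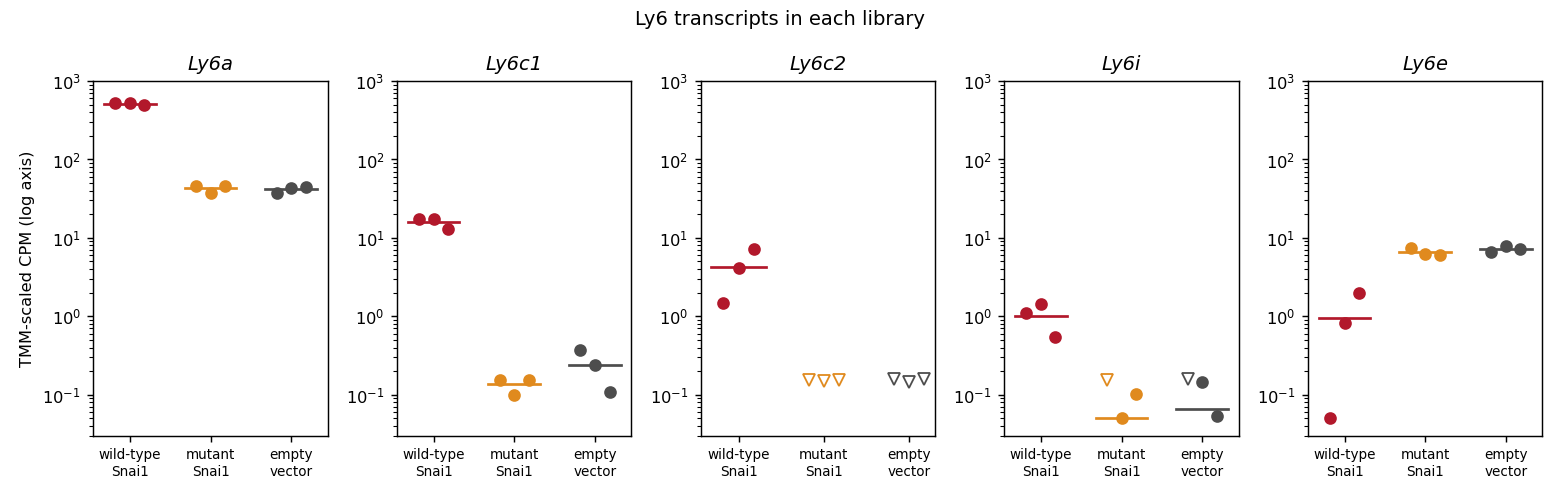
TMM-scaled CPM (log axis) of the 5 detected Ly6 genes, 1 point per library, with wild-type Snai1, mutant Snai1 and empty vector from left to right. Horizontal lines are group means, and open triangles stand at the 3-count floor for libraries with 0 counts. Ly6a, Ly6c1, Ly6c2 and Ly6i are highest in the 3 wild-type libraries, and Ly6e is lowest there.

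Ly6c1, which encodes a form of Ly-6C, had 17.5, 17.6 and 13.1 CPM in wild-type libraries (352, 360 and 261 counts). It had 3, 2 and 3 counts in mutant libraries and 7, 5 and 2 counts in empty-vector libraries. These low counts place the mutant and empty-vector groups close to the detection floor, with overlapping values, and every wild-type library far above both. The ratio of wild type to empty vector was 66.9 (95% counting interval 39.7 to 123), and that of wild type to mutant was 119 (60.2 to 277). The log2 fold change was 6.03 ± 0.271 against empty vector (edgeR, adjusted p = 9.71e-08) and 6.83 ± 0.295 against mutant (adjusted p = 8.34e-08). Without the 2 libraries that stand apart these were 6.37 and 6.75. For mutant against empty vector the log2 fold change was -0.80 ± 0.544 (adjusted p = 0.998), and the counting interval of the ratio reached from 0.204 to 1.43. Without the 2 libraries that stand apart it was -0.38 (edgeR, adjusted p = 0.858).

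Ly6c2 encodes the nearly identical second form of Ly-6C, the one most used to describe monocytes. It had 30, 84 and 145 counts in wild-type libraries, or 1.49, 4.11 and 7.27 CPM, and 0 counts in each mutant and each empty-vector library. Replicate 1 held the fewest Ly6c2 counts of the wild-type libraries, and even this value was above the floor. Set against the floor of 3 counts in each library, the wild-type mean of Ly6c2 was at least 27.7-fold higher than in empty-vector libraries. Against mutant libraries the mean was at least 28.2-fold higher. These bounds hold for the mean only, and replicate 1, at 1.49 CPM, lay nearer to the floor. The edgeR test gave an adjusted p of 0.00639 against empty vector and 0.00655 against mutant. Without the 2 libraries that stand apart these adjusted p values were 7.27e-05 and 2.77e-05. The fitted log2 fold change against empty vector, which depends on the prior count, was 9.41 ± 1.56, and it was 8.80 without wild-type replicate 3. Mutant and empty vector had no counts to compare.

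Because reads of Ly6c1 and Ly6c2 can be exchanged, their counts were also summed before the fit. The log2 fold change of the sum was 6.37 ± 0.227 for wild type against empty vector (edgeR, adjusted p = 2.29e-08) and 7.17 ± 0.247 for wild type against mutant (adjusted p = 2.01e-08). Mutant against empty vector gave -0.80 ± 0.475 (adjusted p = 0.998). The sum changed in the same direction as Ly6c1, which held most of its counts in every wild-type library and all of them in the others. Its direction therefore tells nothing about Ly6c2 alone. The sum of Ly6a, Ly6c1, Ly6c2, Ly6f and Ly6i, which Ly6a dominates, changed by 3.67 ± 0.0965 for wild type against empty vector (adjusted p = 4.75e-09).

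Since reads can be exchanged between Ly6a and its relatives, the counts of each relative are also given per 100 counts of Ly6a in the same library. Ly6c1 had 3.37, 3.35 and 2.65 counts per 100 counts of Ly6a in wild-type libraries, against 0.333, 0.271 and 0.338 in mutant libraries and 0.985, 0.551 and 0.244 in empty-vector libraries. The wild-type ratios lay above all others. Ly6c2 had 0.287, 0.781 and 1.47 counts per 100 of Ly6a in wild-type libraries and 0 in the rest. Of the 50-base windows of Ly6c2, 252 also occurred in Ly6c1 and 3 in Ly6a. Ly6c1 had only 2 to 7 counts in each mutant and empty-vector library, so a ratio of Ly6c2 to Ly6c1 is coarse there. The part of misplaced Ly6a or Ly6c1 reads in these counts was not tested.

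Ly6i, a close relative of Ly6a, did not separate the groups in this way. Its counts were 22, 29 and 11 in wild-type libraries, against 0, 1 and 2 in mutant libraries and 0, 3 and 1 in empty-vector libraries. Per 100 counts of Ly6a these were 0.211, 0.270 and 0.112 in wild-type libraries, 0, 0.135 and 0.225 in mutant libraries and 0, 0.330 and 0.122 in empty-vector libraries. These ratios overlapped between all 3 groups, so a rise of Ly6i and a constant share of Ly6a reads counted as Ly6i cannot be told apart in these counts.

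As counted, Ly6i rose in wild-type against empty-vector libraries by 3.78 ± 0.690 on the log2 scale (edgeR, adjusted p = 0.00117) and against mutant libraries by 4.18 ± 0.727 (adjusted p = 0.000896). The ratio to empty vector was 14.9 (95% counting interval 5.54 to 56.5), and that to mutant was 20.3 (6.62 to 101). For mutant against empty vector the ratio was 0.737 with an interval of 0.108 to 4.36, which is too wide to place it. The log2 fold change against empty vector was 3.20 without the 2 libraries that stand apart and 4.96 without empty-vector replicate 2, the control with the most Ly6i counts. Against mutant it was 4.12 without the 2 libraries that stand apart and 5.03 without mutant replicate 3. Mutant against empty vector gave -0.39 ± 1.23, and -0.92 without the 2 libraries that stand apart, and neither passed (edgeR, adjusted p = 0.999 and 0.786).

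Ly6e, the member with no shared windows, went the other way. It had 1, 17 and 40 counts in wild-type libraries, or 0.0498, 0.832 and 2.01 CPM. It had 7.44, 6.19 and 6.08 CPM in mutant libraries (146, 124 and 119 counts) and 6.70, 7.85 and 7.30 CPM in empty-vector libraries (126, 163 and 136 counts). All wild-type libraries were below all others, and they varied far more among themselves than the libraries of the other groups. The log2 fold change was -2.92 ± 0.539 for wild type against empty vector (edgeR, adjusted p = 0.00174) and -2.77 ± 0.541 for wild type against mutant (adjusted p = 0.00250). For mutant against empty vector it was -0.15 ± 0.437 (adjusted p = 0.999), and the ratio of summed counts was 0.899 with a 95% counting interval of 0.782 to 1.03.

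The size of the fall in Ly6e rested on single wild-type libraries. Without wild-type replicate 3, which held 40 of the 58 wild-type counts, the log2 fold change was -4.01 against empty vector and -3.87 against mutant. Without the 2 libraries that stand apart it was -2.43 against empty vector (edgeR, adjusted p = 1.34e-06) and -2.22 against mutant (adjusted p = 1.94e-06). The direction and the call were the same in each. Mutant against empty vector then gave -0.21 (adjusted p = 0.657).

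**Figure D3:**
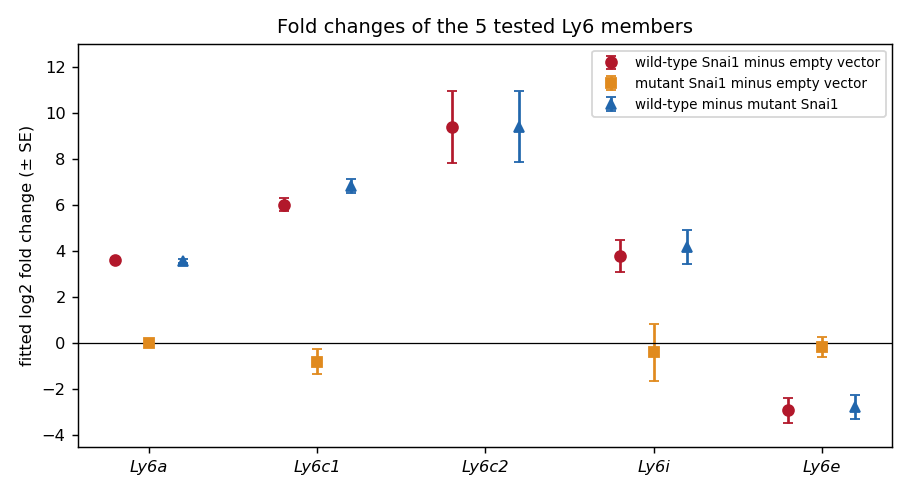
Fitted log2 fold changes with their SE for the 5 tested Ly6 genes, for wild-type Snai1 minus empty vector (red circles), mutant Snai1 minus empty vector (orange squares) and wild-type minus mutant Snai1 (blue triangles). Ly6a, Ly6c1, Ly6c2 and Ly6i lie above 0 in both comparisons of wild type and Ly6e below it, at -2.92 and -2.77, while all drawn values of mutant minus empty vector are between -0.80 and 0.03. Ly6c2 has no square because it had 0 counts in both groups, and its other points and their SE depend on the prior count of the fit.

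Of the 6 genes, 5 had enough counts for the test, and 4 of them were called higher and 1 lower at an adjusted p under 0.05 in wild type against empty vector. Over all 12484 tested genes 25.2% were called higher and 24.3% lower, so calls in either direction were common in this comparison. The groups did not overlap for all 5 tested members, against 56.6% of all tested genes. The counts for wild type against mutant were the same, 4 higher and 1 lower, beside 24.5% and 23.4% of all tested genes, and the groups again did not overlap for all 5, beside 55.8%. In mutant against empty vector 0 of 5 were called, where 0.00801% of tested genes, a single gene, passed, 603 genes had an unadjusted p under 0.05 and DESeq2 called 10. These member counts are a description only, since 4 of the 5 reached the expression filter in all libraries of some groups and not of others: Ly6c1, Ly6c2 and Ly6i through wild type, and Ly6e through mutant and empty vector. Ly6a alone reached it in all 3 groups.

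The same holds for the medians. Because 3 of the 5 members entered the test only through wild-type libraries, a high median in comparisons of wild type was fixed by the filter, and nothing is read from it. The median log2 fold change of the 5 was 3.78 for wild type against empty vector, -0.15 for mutant against empty vector and 4.18 for wild type against mutant, where the medians over all tested genes were -0.00, -0.00 and -0.01. By log2 fold change in wild type against empty vector Ly6a, the member that the filter did not select, ranked 145 from the highest of the 12484 genes.

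Per kilobase of the deposited gene length, Ly6a stood highest in every group, at 620 ± 21.4 CPM per kb in wild-type, 51.6 ± 6.12 in mutant and 50.5 ± 4.21 in empty-vector libraries (mean ± SD, n = 3 each). In wild-type libraries Ly6c1 came next at 9.76 ± 1.57 CPM per kb and Ly6c2 at 5.36 ± 3.61, with overlapping values. Ly6i followed at 1.16 ± 0.500 CPM per kb and Ly6e at 0.418 ± 0.428, which also overlapped each other. In the other groups Ly6e took the second place, at 2.86 ± 0.328 CPM per kb in mutant and 3.17 ± 0.250 in empty-vector libraries, and both were clear of the genes beneath. Ly6c1 averaged 0.0822 and Ly6i 0.0578 CPM per kb in mutant libraries, and 0.146 and 0.0752 in empty-vector libraries, with overlap between both genes in each group.

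The makeup of the Ly6 transcripts also differed. Ly6a took 95.6% to 96.3% of the counts of the 6 genes in wild-type libraries, 85.3% to 87.7% in mutant libraries and 84.2% to 85.5% in empty-vector libraries. Ly6e took 0.00922% to 0.389% in wild-type libraries, against 11.8% to 14.3% in mutant and 14.2% to 15.1% in empty-vector libraries. The 6 genes together had 10841, 11250 and 10291 counts in wild-type libraries, 1050, 866 and 1012 in mutant libraries and 844, 1079 and 958 in empty-vector libraries.

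**Figure D4:**
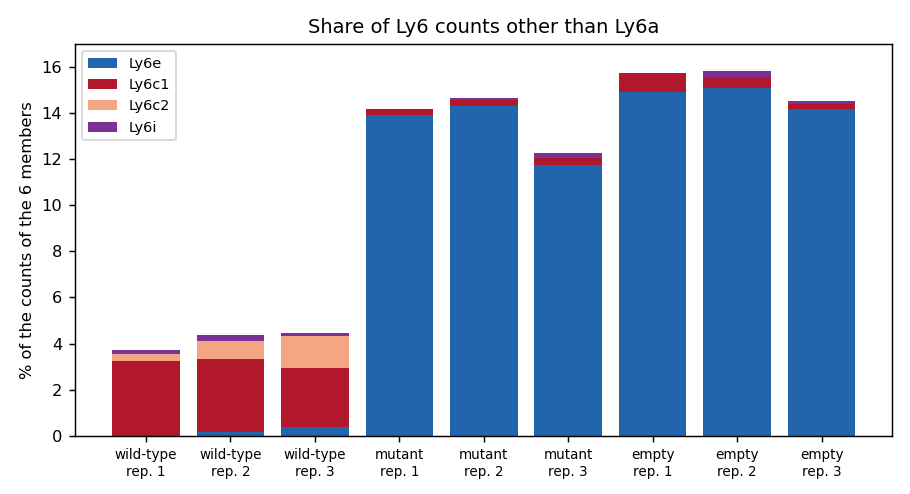
Percent of the summed counts of the 6 Ly6 genes that fell on Ly6e, Ly6c1, Ly6c2 and Ly6i in each library, with Ly6a making up the rest to 100%. In the 3 wild-type libraries Ly6c1 is the largest of the 4, and Ly6e takes at most 0.389%, while in the mutant and empty-vector libraries Ly6e takes 11.8% to 15.1%.

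These are bulk libraries, in which more cells that carry a transcript and more of it in each cell cannot be told apart. Some markers of other blood cells also changed with wild-type Snai1, in both directions. Of 10 monocyte and macrophage markers, 8 were higher and 2 lower in wild type against empty vector, beside 25.2% and 24.3% of all tested genes. The same shares stand beside the counts of the other marker lists. The summed level of the monocyte and macrophage markers was 825 to 1455 CPM in wild-type, 138 to 164 in mutant and 138 to 163 in empty-vector libraries. Lyz2, the macrophage lysozyme, rose by 5.13 ± 0.230 on the log2 scale (edgeR, adjusted p = 3.71e-07) and Cd14, a coreceptor for bacterial lipopolysaccharide, by 6.07 ± 0.290 (adjusted p = 1.83e-07). Of 10 neutrophil markers 5 were tested and 3 were higher, with a summed level of 73.5 to 172 CPM in wild-type, 3.09 to 5.04 in mutant and 3.30 to 4.24 in empty-vector libraries, while the defining gene Ly6g had 0 counts in all 9 libraries. Mmp8, a neutrophil collagenase and 1 of the 3, was not called without the 2 libraries that stand apart (edgeR, adjusted p = 0.0993), while Lcn2 and Mmp9 were. Cd14, Lcn2 and Mmp8 reached the expression filter in all wild-type libraries but not in all libraries of another group. A call higher was therefore favoured by the filter for such genes, and the marker counts are a description only.

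Of 10 progenitor markers, 3 were higher and 4 lower in wild type against empty vector, with sums of 7888 to 9525 CPM in wild-type, 7849 to 8175 in mutant and 7931 to 8135 in empty-vector libraries. The T cell list had 2 of 8 markers tested and 1 higher, Cd28, which also reached the filter through wild-type libraries only. Its sums were 3.62 to 20.0 CPM in wild-type, 0.920 to 1.60 in mutant and 1.40 to 2.41 in empty-vector libraries for the whole list, and Cd3e had 0 counts throughout. The B and plasma cell list had 3 of 7 tested and 2 lower, with sums of 1.89 to 4.94 CPM in wild-type, 3.84 to 5.06 in mutant and 4.31 to 6.33 in empty-vector libraries, and Pax5 and Ms4a1 had 0 counts. The endothelial list had 2 of 7 tested and 1 higher, with sums of 385 to 417 CPM in wild-type, 389 to 414 in mutant and 415 to 442 in empty-vector libraries, and Emcn and Sox17 had 0 counts. The plasmacytoid dendritic list had 4 of 6 tested and 2 lower, with sums of 143 to 194 CPM in wild-type, 173 to 181 in mutant and 173 to 182 in empty-vector libraries, and Siglech had 0 counts. No marker of any list was called in mutant against empty vector by edgeR. The part of these cell states in the Ly6 values was not tested.

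Among the other genes of the Ly6 and urokinase receptor family, 35 of the 37 listed were in the table, 16 of them had 0 counts in all 9 libraries and 2 had enough counts to test. Plaur, the GPI-anchored receptor of urokinase on myeloid cells, had 39.6, 86.4 and 92.8 CPM in wild-type libraries, against 26.0, 24.8 and 26.4 CPM in mutant libraries and 24.5, 24.0 and 24.0 CPM in empty-vector libraries. It was higher in every wild-type library, by 1.59 ± 0.270 on the log2 scale against empty vector (edgeR, adjusted p = 0.00125) and by 1.89 without the 2 libraries that stand apart. Ly6g5b differed by -0.46 ± 0.266 and did not pass (adjusted p = 0.179). In mutant against empty vector 0 of the 2 were called.

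Every Ly6 protein described here needs a GPI anchor, which a chain of enzymes builds in the endoplasmic reticulum and remodels. Of 31 genes of this pathway 30 were tested, and 3 were higher and 12 lower in wild type against empty vector, with a median log2 fold change of -0.05. Over all tested genes 25.2% were called higher and 24.3% lower in this comparison. In wild type against mutant there were again 3 higher and 12 lower, beside 24.5% and 23.4% of all tested genes. In mutant against empty vector 0 of 30 were called. Pigp, a subunit of the enzyme that starts the anchor, had 18.0, 19.6 and 19.2 CPM in wild-type libraries, against 36.3, 33.1 and 35.6 CPM in mutant and 37.7, 32.3 and 30.0 CPM in empty-vector libraries. It was lower in every wild-type library, by -0.82 ± 0.0934 on the log2 scale against empty vector (edgeR, adjusted p = 5.48e-05). Pgap1, which removes the acyl chain from the inositol of the anchor, had 4, 4 and 2 counts in wild-type libraries, against 23, 21 and 16 counts in mutant and 21, 25 and 18 counts in empty-vector libraries, a log2 fold change of -2.68 ± 0.341 against empty vector (adjusted p = 0.000111). Pgap4, which adds a galactosamine side chain, changed by -0.82 ± 0.0835 and Pigx, a partner of the first mannose transferase, by -0.65 ± 0.0768 against empty vector (adjusted p = 2.44e-05 and 7.02e-05).

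Few neighbours of the cluster could be tested. Within 500 kb of the members lie 31 other genes of the table. Of these, 16 had 0 counts in all 9 libraries and 6 were tested. Ly6a2, which lies between Ly6c2 and Ly6f and had too few counts to test, had 0, 6 and 18 counts in wild-type libraries, against 0, 0 and 0 in mutant libraries and 0, 0 and 1 in empty-vector libraries. Against empty vector, wild type gave 0 higher and 4 lower of the 6, with a median log2 fold change of -0.64. Over all tested genes 25.2% were called higher and 24.3% lower, and 6 genes are too few to read a difference from these shares. The counts against mutant were the same, beside 24.5% and 23.4% of all tested genes, while mutant against empty vector gave 0. The pseudogene 9030619P08Rik, which RefSeq lists as transcribed, had 0, 3 and 5 counts in wild-type libraries, against 92, 91 and 83 counts in mutant and 88, 113 and 128 counts in empty-vector libraries. Its log2 fold change was -5.35 ± 0.411 against empty vector (edgeR, adjusted p = 3.59e-06), -4.92 without the 2 libraries that stand apart and -6.13 without wild-type replicate 3. Them6 changed by -1.31 ± 0.193 (adjusted p = 0.000298), the zinc finger gene Zfp41 by -0.92 ± 0.111 (adjusted p = 7.97e-05) and Jrk by -0.36 ± 0.0800 (adjusted p = 0.00409) against empty vector.

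**Figure D5:**
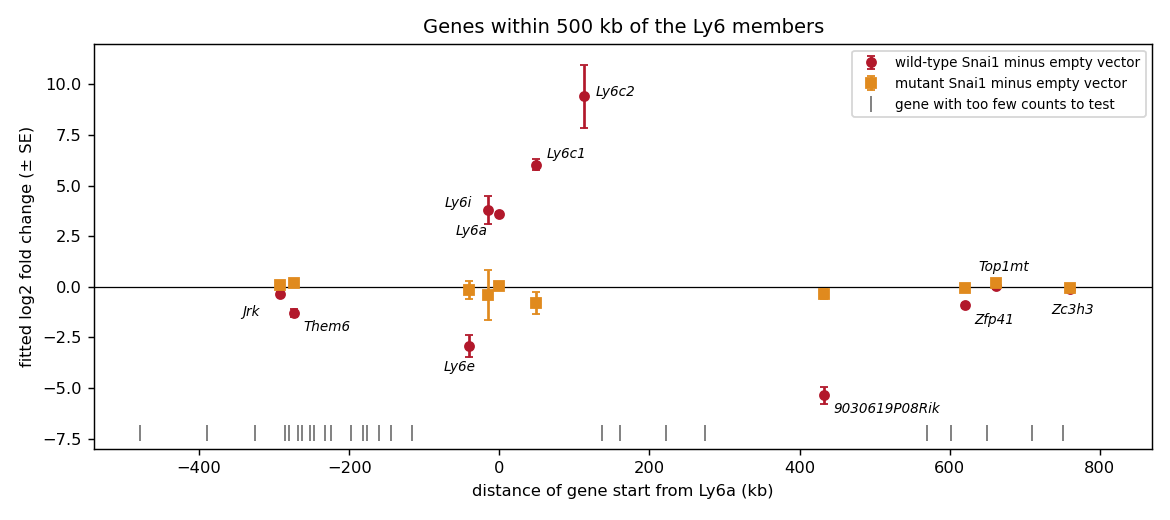
Fitted log2 fold changes with their SE for genes within 500 kb of the Ly6 members, by the distance of their start from that of Ly6a in kb, for wild-type Snai1 (red circles) and mutant Snai1 (orange squares), both minus empty vector. Grey ticks mark genes with too few counts to test. Ly6i, Ly6a, Ly6c1 and Ly6c2 lie above 0 in the middle with wild-type Snai1, Ly6e and 9030619P08Rik lie at -2.92 and -5.35, and the red circles of the other neighbours lie between -1.31 and 0.05.

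Among 11611 tested genes averaging 1 CPM or more, those whose centred log2 CPM over the 9 libraries lay closest to that of Ly6a were Stab1, Spin4, Nos2 and Fcgr4. Their root mean square distances were 0.133, 0.187, 0.188 and 0.243 log2 units. Stab1, a scavenger receptor, had 36.7, 41.0 and 42.9 CPM in wild-type libraries, against 4.03, 2.59 and 3.32 CPM in mutant and 2.71, 2.99 and 2.84 CPM in empty-vector libraries. Nos2, the inducible nitric oxide synthase, had 13.3, 11.8 and 15.8 CPM in wild-type libraries, against 1.38, 1.15 and 1.23 CPM in mutant and 1.12, 1.01 and 1.07 CPM in empty-vector libraries.

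The genes closest to Ly6e were Nmnat2, Pdcd1, Septin1 and Mcf2l, at distances of 0.414, 0.425, 0.442 and 0.509 log2 units, and like Ly6e they were lowest in wild-type replicate 1. Pdcd1, which encodes the inhibitory receptor PD-1, had 2, 13 and 33 counts in wild-type libraries, against 69, 112 and 92 counts in mutant and 157, 180 and 151 counts in empty-vector libraries. Nmnat2, an enzyme of NAD synthesis, had 4, 46 and 51 counts in wild-type libraries, against 174, 172 and 216 counts in mutant and 158, 150 and 208 counts in empty-vector libraries. These patterns describe likeness over 9 libraries only.

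RefSeq promoter windows, from 250 bases before to 50 bases after a transcript start, were matched for 3 of the 6 members: 2 each for Ly6c1 and Ly6c2 and 1 for Ly6f. They are shown because Ly6c1 and Ly6c2 rose together with wild-type Snai1 and their relative Ly6f had no counts in any group. Capitals mark GAGGAA, the core motif of PU.1-type factors, or TTCCTC, the same motif on the other strand. The windows are chr15:75048788-75049087 (minus strand) for Ly6c1, chr15:75111922-75112221 (minus strand) for Ly6c2 and chr15:75268171-75268470 (plus strand) for Ly6f, on GRCm38.p6.

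Ly6c1: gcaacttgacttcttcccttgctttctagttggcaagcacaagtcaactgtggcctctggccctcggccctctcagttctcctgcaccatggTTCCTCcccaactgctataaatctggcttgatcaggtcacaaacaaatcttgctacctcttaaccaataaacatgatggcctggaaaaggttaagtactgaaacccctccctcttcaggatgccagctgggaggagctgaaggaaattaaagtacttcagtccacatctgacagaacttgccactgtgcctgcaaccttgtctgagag
Ly6c2: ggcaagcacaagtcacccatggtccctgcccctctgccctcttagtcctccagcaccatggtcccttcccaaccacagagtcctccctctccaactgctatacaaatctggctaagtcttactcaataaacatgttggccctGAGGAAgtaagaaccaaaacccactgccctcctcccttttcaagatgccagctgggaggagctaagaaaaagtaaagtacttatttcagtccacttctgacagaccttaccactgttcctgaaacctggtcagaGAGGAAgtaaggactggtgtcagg
Ly6f: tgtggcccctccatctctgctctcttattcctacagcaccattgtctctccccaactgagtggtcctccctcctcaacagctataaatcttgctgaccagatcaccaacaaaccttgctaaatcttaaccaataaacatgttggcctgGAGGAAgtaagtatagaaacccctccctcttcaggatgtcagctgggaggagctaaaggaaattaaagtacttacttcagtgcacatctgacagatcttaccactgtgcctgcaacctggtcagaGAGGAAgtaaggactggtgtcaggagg

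These windows of Ly6c1 and Ly6c2 aligned with 208 identical of 334 columns (62.3%). Gap columns were counted as differing, among them those from the offset between the windows, so the share among paired bases is higher. All 5 windows of the 3 genes, those of the uncounted Ly6f included, held 1 or 2 matches to GAGGAA on either strand, which 28.3% of 32851 mouse promoter windows of 300 bases hold at least once. None held CAGGTG, the E-box bound by Snai1-type zinc fingers (20.2% of all windows), TTCNNNGAA, the motif of STAT factors (8.30%), or GATAAG, the motif of GATA factors (7.44%), on either strand. No match overlapped another motif. A match or its absence in such a window describes only these letters.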

How the data were processed

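The deposited table holds raw read counts per gene for 9 libraries, made by the authors with featureCounts on the mm10 genome from libraries of the TruSeq stranded mRNA kit, per the submitters' processing notes and the labels' protocols. Those notes list limma 3.29.12 and edgeR 3.15.0 as well, with no aligner, annotation or strand setting. Gene identifiers were matched to symbols and positions of the RefSeq annotation of GRCm38.p6 (25275 of 27179 matched).

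Counts were analysed in R 4.3.3 with edgeR 4.0.16: filterByExpr (minimum count 10), TMM scaling, 1 robust quasi-likelihood fit over all 9 libraries with group as the only term, and Benjamini-Hochberg adjustment over the 12484 tested genes, with a call at an adjusted p under 0.05. Counts-per-million (CPM) values use the TMM-scaled library size. The SE was derived from the test, as the absolute log2 fold change divided by the square root of the quasi-likelihood F statistic. For Ly6c2 it therefore depends on the prior count as well. The same steps were tested on simulated data, with changes planted in a small set of well-counted genes only. The simulation therefore does not cover a gene with as few counts as Ly6i, or one counted in wild type only, as Ly6c2. Intervals are exact 95% binomial intervals, and they and the 3-count floors cover counting error only.

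The members, gene lists and tests were chosen with earlier results of these data known. Named genes were all 6 members, Snai1 and Kdm1a, up to 4 tested genes with the smallest adjusted p in wild type against empty vector from each list and from the genes within 500 kb, and the 4 genes nearest in profile to Ly6a and to Ly6e. The text leaves some of these out. Whether replicates came from separate transductions or cultures is not stated, so the p-values reflect a spread between libraries that may be purely technical. Alternatives were RLE scaling, no filter (at least 1 count in all), DESeq2 1.42.0, a replicate block, fits of 2 groups, leaving out each library, Snai1 left out of library sizes, summed relatives, and both libraries that stand apart left out.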

Additional observations from a re-analysis of the deposited data

How the results depend on the processing

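All 267 recomputed values entered for the 5 tested Ly6 members, over 3 comparisons, kept their side of the threshold, and those called kept their direction. Among them are the fits of summed relatives, entered under each gene of the sum. These are not values of the single gene. Ly6a dominates the larger sum and Ly6c1 the smaller, so their sameness tells nothing about the lesser members. The ranges that follow leave the sums out. A sign change of a value that was uncalled in both settings was not counted. For wild type against empty vector the log2 fold change lay between 3.53 and 3.66 for Ly6a, 5.70 and 6.44 for Ly6c1, -4.01 and -2.36 for Ly6e, and 3.20 and 4.96 for Ly6i. In the comparisons of wild type with empty vector and with mutant, the largest adjusted p of Ly6c2 was 0.0380 and 0.0389, both without wild-type replicate 2. That of Ly6e was 0.00978 against empty vector, in the fit of 2 groups, and 0.0130 against mutant, without wild-type replicate 2. For mutant against empty vector the number of genes called, 1 in the analysis reported, was 10 with DESeq2, 30 in the fit of only the 2 groups, 0 with Snai1 left out of library sizes (which removes that gene from the test) and 29 without wild-type replicate 1 and empty-vector replicate 1 together. It was 1 to 62 with 1 library left out in turn, the highest without wild-type replicate 1. The cause of these shifts was not tested, and 0 of them involved a Ly6 member. For wild type the count of called genes against empty vector was 5106 to 7410 with 1 library left out. Bst2, a marker of the plasmacytoid dendritic list, differed between wild type and mutant by 0.11 and was not called. It was -0.29 without wild-type replicate 1 and -0.30 without both libraries that stand apart, and over all single libraries left out it lay between -0.29 and 0.33. Mmp8, 1 of the 3 neutrophil markers called higher, lost its call in 4 settings of each comparison with wild type. Depth limits Ly6c1, Ly6c2 and Ly6i in mutant and empty-vector libraries, where differences under the 3-count floor were not detectable.

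With the replicate number as a block the fit called 5886 genes in wild type against empty vector, 1 in mutant against empty vector and 5732 in wild type against mutant, against 6172, 1 and 5977 without it, and every call on a Ly6 member was the same. Libraries of the same number correlated between -0.0873 and 0.210 after removal of group means, with 2 of 9 pairs above 0.1, and 4 of 9 libraries correlated best with their own number, so the numbers were not taken as pairs.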

Other observations

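Within the wild-type group, replicate 1 held the fewest counts of Ly6c2 (30, against 84 and 145), Ly6e (1, against 17 and 40) and Plaur (795, against 1766 and 1850), while Ly6a was nearly even over the 3 libraries (10436, 10760 and 9834). Cd28, a T cell costimulator, was spread the other way, with 377 counts in wild-type replicate 1 and 51 and 85 in replicates 2 and 3, against 3, 5 and 3 counts in mutant and 3, 0 and 0 counts in empty-vector libraries.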
